A study of Mus musculus with 4 samples.

Results

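The plasminogen activator genes followed here were Plat, Plau, Plaur, Serpine2, Anxa2 and S100a10, read in smooth muscle cells, fibroblasts and macrophages of the mouse aorta. These 6 genes were named for what their products do and looked up by symbol, but were chosen with earlier results of these data known. All 6 were listed in each of the 3 count tables, out of 18109 genes common to the tables. Cells were assigned by marker UMIs (unique molecular identifiers, each standing for 1 captured transcript). A smooth muscle cell had at least 5 UMIs of Myh11, the smooth muscle myosin heavy chain, and 0 of Pdgfra, the PDGF receptor of fibroblasts. A fibroblast had at least 1 UMI of Pdgfra and at most 2 of Myh11. A macrophage had at least 10 UMIs of C1qa, C1qb and Lyz2 together and fewer than 5 of Myh11.

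Plasminogen is the circulating precursor of plasmin, a protease that dissolves fibrin and cleaves matrix proteins. It is converted by tissue-type plasminogen activator (the product of Plat) and by urokinase (Plau), which acts at the cell surface on its receptor (Plaur). Serpine2, or protease nexin-1, is a serpin that traps these proteases, whereas annexin A2 (Anxa2) and its partner S100a10 form a complex at the cell surface that binds plasminogen and tissue-type activator. In arteries, fibroblasts, smooth muscle cells and invading leukocytes can each supply parts of this system.

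The study asked whether cells of the ascending aorta that descend from the second heart field respond to angiotensin II (AngII), the pressor hormone of the renin system, as cells of other origins do. Aortas came from male mice of the strain Mef2c-mTmG, at baseline or after AngII had been infused for 3 days. Live single cells were sorted by their lineage label and made into 10x Chromium 3′ v3 libraries. The tables used were SHF baseline (second heart field, no AngII), SHF AngII (second heart field, 3 days of AngII) and CNC AngII (a lineage that the labels do not spell out, 3 days of AngII). For CNC the baseline sample was not analysed here, so the AngII comparison exists for SHF alone. The mTmG reporter is a membrane-bound fluorescent protein pair that switches colour in cells in which Cre recombinase was active and in their descendants. The labels give neither the Cre driver, nor the age of the mice, nor how many mice went into a library.

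Each group was 1 library, so no difference has a replicate check and no p-value is given. All 95% intervals cover counting error only and not differences between mice or preparations. Libraries held 9412 to 11166 barcodes, of which 8374 (SHF baseline), 9299 (SHF AngII) and 10194 (CNC AngII) were kept as cells, with medians of 10316, 13325 and 12610 UMIs. Any pair of libraries shared 23 to 29 barcodes. Smooth muscle cells numbered 2259, 4649 and 6385 in that order of libraries, fibroblasts 3939, 2640 and 842, and macrophages 8, 13 and 1764. The SHF macrophages were too few to compare. Each gate was checked against 8 further markers of its own cell type, in CPM (UMIs of the gene per 1000000 UMIs of the class). The smooth muscle markers summed to 55422.2, 63063.1 and 56268.7 CPM in smooth muscle cells of the 3 libraries, against 1305, 4067 and 3966 CPM in fibroblasts. The fibroblast markers summed to 46161.0, 27510.7 and 22711.2 CPM in fibroblasts, but also to 5215, 5259 and 5259 CPM in smooth muscle cells, where all 8 were at 10 CPM or more in both SHF libraries. The macrophage markers summed to 9042 CPM in CNC AngII macrophages, against 105.8 CPM in smooth muscle cells and 83.91 CPM in fibroblasts of that library. A list of 21 immediate early and heat shock genes, which can respond to tissue digestion, was lower with AngII in both classes. Its summed level was 17198.2, 9992 and 9019 CPM in smooth muscle cells of the libraries in the same order, and 23171.4, 11520.8 and 10861.2 CPM in fibroblasts.

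Tissue-type activator, Plat, was the sole gene of the 6 past 2-fold with AngII in opposite directions, higher in smooth muscle cells and lower in fibroblasts. In smooth muscle cells Plat was at 40.5 CPM in SHF baseline (interval 38.3 to 42.9), 110 CPM in SHF AngII (108 to 113) and 115 CPM in CNC AngII (113 to 117). In fibroblasts it was at 233 CPM in SHF baseline (229 to 238), 93.1 CPM in SHF AngII (90.3 to 96) and 59.1 CPM in CNC AngII (54.7 to 63.7). The fibroblasts of the baseline library were thus the highest of the 7 class profiles with at least 50 cells, and under AngII both smooth muscle profiles lay above both fibroblast profiles. In CNC AngII macrophages Plat was at 2.5 CPM (1.87 to 3.28).

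The ratio of SHF AngII to SHF baseline for Plat was 2.72-fold in smooth muscle cells (2.56 to 2.89, log2 ratio 1.42). In fibroblasts the SHF AngII library was 2.51-fold lower (2.42 to 2.6, log2 ratio -1.32). The log2 ratio of fibroblasts minus that of smooth muscle cells, without a pseudocount, was -2.77 (-2.87 to -2.67). Plat was therefore 5.76-fold higher in fibroblasts than in smooth muscle cells of SHF baseline (5.42 to 6.12), but 1.18-fold lower in those of SHF AngII (1.14 to 1.23) and 1.94-fold lower in those of CNC AngII (1.8 to 2.1). For SHF AngII the log2 ratio of fibroblasts to smooth muscle cells was -0.24, and -0.00 with cells thinned to 2000 UMIs.

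Within each class the share of cells with a Plat UMI had the same order of libraries as the level. It was 33%, 56.7% and 65.3% of smooth muscle cells in SHF baseline, SHF AngII and CNC AngII, at medians of 12441, 13336 and 13450 UMIs per cell. Of fibroblasts it was 56.8%, 47.5% and 32.9%, at medians of 9534, 15486 and 12380 UMIs. In CNC AngII macrophages, which had little Plat, the share was 2.78% at a median of 11108 UMIs. With every cell thinned to 2000 UMIs, the shares were 7.94%, 15.9% and 19.2% of smooth muscle cells and 27.3%, 13.1% and 9.32% of fibroblasts, against 0.342% of macrophages.

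The immediate early list moved with this comparison, so Plat was also read within cells above and below the median share of these genes. The median was that of each library and class, here and for the other genes. In smooth muscle cells the log2 ratio of SHF AngII to SHF baseline was 1.34 above the median and 1.56 below it. In fibroblasts it was -0.95 above and -1.60 below. Both directions were present on either side. As each library had its own median, the split does not hold the immediate early genes equal between libraries. Baseline fibroblasts themselves differed, with Plat at 165 CPM above the median and 304 CPM below it. The summed level of the 8 fibroblast markers was also lower with AngII in fibroblasts, at 46161.0 CPM in SHF baseline against 27510.7 (SHF) and 22711.2 (CNC) under AngII. Summed smooth muscle markers in fibroblasts were 1305 CPM in SHF baseline against 4067 (SHF) and 3966 (CNC) under AngII. The part of these marker levels in the Plat ratio was not tested.

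**Figure D1:**
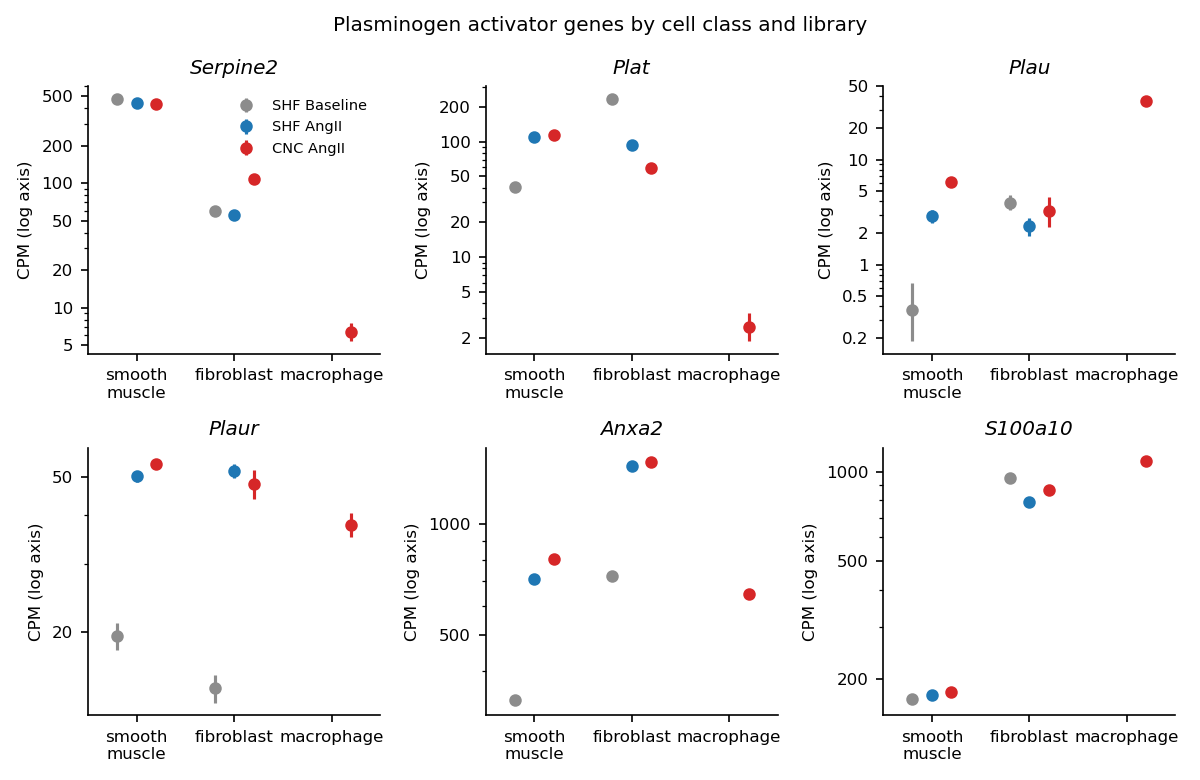
Level of each of the 6 genes in smooth muscle cells, fibroblasts and macrophages by library, in CPM on a log axis; bars are exact 95% Poisson intervals, and only class profiles of at least 50 cells are drawn. Plat is highest in SHF baseline fibroblasts (233 CPM), Serpine2 in smooth muscle cells of all libraries (434 to 473 CPM) and Plau in CNC AngII macrophages (35.9 CPM).

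Urokinase, Plau, was scarce in the cells of the wall and highest in macrophages. Smooth muscle cells held 11 Plau UMIs in SHF baseline (0.372 CPM, 0.186 to 0.666), 201 in SHF AngII (2.89 CPM, 2.51 to 3.32) and 584 in CNC AngII (6.09 CPM, 5.61 to 6.6). Fibroblasts were at 3.9 CPM in SHF baseline (3.3 to 4.59), 2.32 CPM in SHF AngII (1.89 to 2.81) and 3.23 CPM in CNC AngII (2.27 to 4.45). Macrophages of CNC AngII held 745 Plau UMIs, or 35.9 CPM (33.3 to 38.5). Plau was the least abundant of the 6 transcripts in smooth muscle cells and fibroblasts of every library, while in macrophages it exceeded Plat and Serpine2.

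Within smooth muscle cells the SHF AngII level of Plau was 7.77-fold that of SHF baseline (4.25 to 15.8), from a denominator of 11 UMIs, and the CNC AngII level was 2.11-fold that of SHF AngII (1.79 to 2.48). In fibroblasts SHF AngII was 1.69-fold lower than SHF baseline (1.3 to 2.19). Within fibroblasts above the median share of immediate early genes, however, the Plau log2 ratio was 0.11 (-0.48 to 0.72), against -1.37 (-1.90 to -0.86) below it. The mean level was under 10 CPM in these comparisons, so Plau is left out of the counts of genes past 2-fold below. Macrophages had 5.89-fold more Plau than smooth muscle cells of the same library (5.28 to 6.57) and 11.1-fold more than its fibroblasts (7.98 to 15.9).

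Free RNA from lysed cells can add UMIs of macrophage genes to other droplets. The 8 macrophage markers stood in smooth muscle cells of CNC AngII at 1.11 to 1.58% of their macrophage level, and Plau stood at 17%. In fibroblasts of that library the markers were at 0.71 to 1.72% and Plau at 9.01%. With free RNA subtracted at 5%, the log2 ratio of Plau in macrophages over smooth muscle cells was 2.47, against 2.38 without it. The 5% was a fixed share and not an estimate from the data. The part of free RNA in the Plau of smooth muscle cells and fibroblasts was not tested. A Plau UMI was found in 29.1% of CNC AngII macrophages and in 8% of smooth muscle cells and 3.8% of fibroblasts of that library; after thinning to 2000 UMIs the shares were 5.76%, 0.877% and 0.119%. In the SHF libraries, 2 Plau UMIs were found among the 8 macrophages of baseline and 2 among the 13 of AngII.

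The UMIs of Plat per UMI of Plau give the balance of both activators within a class. Each transcript gives 1 tag near its 3′ end in this assay, so no length scaling was made, though capture may differ between transcripts. Smooth muscle cells had 109 Plat UMIs per Plau UMI in SHF baseline (60.6 to 219), 38.1 in SHF AngII (33.1 to 44.1) and 18.9 in CNC AngII (17.3 to 20.5). Fibroblasts had 59.8 (50.8 to 70.8), 40.2 (33.1 to 49.3) and 18.3 (13.1 to 26.2). In macrophages the balance was turned, with 14.3 Plau UMIs per Plat UMI (10.8 to 19.4). Plat there was at 2.18% of its smooth muscle level, inside the range of the 8 smooth muscle markers (0.516 to 2.52%).

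The urokinase receptor, Plaur, was higher with AngII in both classes of the wall. Smooth muscle cells had it at 19.6 CPM in SHF baseline (18 to 21.2), 50.3 CPM in SHF AngII (48.7 to 52) and 54 CPM in CNC AngII (52.5 to 55.5). In fibroblasts it was at 14.4 CPM (13.2 to 15.6), 51.9 CPM (49.8 to 54) and 48 CPM (44.1 to 52.2). Macrophages of CNC AngII were at 37.8 CPM (35.2 to 40.6), while the 8 and 13 macrophages of SHF baseline and SHF AngII held 5 and 16 Plaur UMIs. The baseline profiles were the lowest, macrophages lay between, and the 4 AngII profiles of the wall each overlapped their neighbour in order of level within counting error.

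Plaur in SHF AngII was 2.57-fold its SHF baseline level in smooth muscle cells (2.35 to 2.81, log2 ratio 1.32) and 3.62-fold in fibroblasts (3.29 to 3.98, log2 ratio 1.78). The log2 ratio of fibroblasts exceeded that of smooth muscle cells by 0.49 without a pseudocount (0.31 to 0.68). Smooth muscle cells with a Plaur UMI made up 17.1% at baseline and 36.4% (SHF) and 39.9% (CNC) under AngII, and 3.73%, 6.84% and 8.71% after thinning. Within cells above and below the median share of immediate early genes, the log2 ratios were 1.05 and 1.63 in smooth muscle and 1.92 and 1.79 in fibroblasts. In macrophages Plaur and Plau were nearly level, at 1.06 Plaur UMIs per Plau UMI (0.953 to 1.17).

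Annexin A2 also stood higher with AngII in both classes, whereas its partner S100a10 did not. Smooth muscle cells had Anxa2 at 335 CPM in SHF baseline (329 to 342), 710 CPM in SHF AngII (703 to 716) and 803 CPM in CNC AngII (797 to 809). Fibroblasts had it at 722 CPM (714 to 731), 1431.7 CPM (1420.7 to 1442.8) and 1468.2 CPM (1446.1 to 1490.6). Macrophages of CNC AngII were at 647 CPM (636 to 658). In both classes the AngII libraries lay well above the baseline library, and fibroblasts lay above smooth muscle cells in each library.

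S100a10 was at 171 CPM in smooth muscle cells of SHF baseline (166 to 176), 176 CPM in SHF AngII (173 to 179) and 181 CPM in CNC AngII (178 to 184). In fibroblasts it was at 955 CPM (946 to 965), 792 CPM (783 to 800) and 867 CPM (850 to 884). Macrophages had 1084.0 CPM (1069.9 to 1098.3), above both other classes. S100a10 thus separated the classes more than the conditions.

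The ratio of SHF AngII to SHF baseline was 2.12-fold for Anxa2 in smooth muscle cells (2.07 to 2.16) and 1.98-fold in fibroblasts (1.95 to 2.01). For S100a10 the log2 ratio was 0.04 in smooth muscle cells and -0.27 in fibroblasts. Anxa2 UMIs per S100a10 UMI were accordingly 1.96 in baseline smooth muscle cells, 4.03 and 4.44 in those of SHF AngII and CNC AngII, and 0.756, 1.81 and 1.69 in fibroblasts. Macrophages had 0.597 (0.584 to 0.61), the lowest value of the 7 profiles. An antisense gene, Gm16144, overlaps exons of Anxa2, and how the counting treated strand is not given in the sources used here.

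Protease nexin-1, Serpine2, was foremost a smooth muscle transcript, and in smooth muscle cells it was near the same level in all 3 libraries. Smooth muscle cells had 473 CPM in SHF baseline (465 to 481), 436 CPM in SHF AngII (431 to 441) and 434 CPM in CNC AngII (430 to 438). Fibroblasts had 59.3 CPM (56.9 to 61.8), 55.1 CPM (52.9 to 57.3) and 108 CPM (102 to 114). Macrophages of CNC AngII had 6.4 CPM (5.36 to 7.59). Smooth muscle cells thus lay highest in each library, and within SHF neither class differed much between baseline and AngII, with log2 ratios of -0.12 and -0.11. Under 12 alternatives of processing, the fibroblast ratio ranged from -0.18 to 0.46, with 4 changes of sign.

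Fibroblasts were 7.98-fold lower than smooth muscle cells in SHF baseline (7.63 to 8.34), 7.93-fold lower in SHF AngII (7.61 to 8.26) and 4.02-fold lower in CNC AngII (3.8 to 4.26). A Serpine2 UMI was found in 91.1%, 93.2% and 97% of smooth muscle cells and in 19.3%, 28.6% and 34.6% of fibroblasts of the 3 libraries, against 6.97% of CNC AngII macrophages. At 2000 UMIs per cell the fibroblast shares were 7.22%, 8.84% and 13.5%, and counts per fibroblast were more uneven than counting alone gives, with a variance 1.9, 2.12 and 2.34 times the mean. Fibroblast Serpine2 stood at 12.5%, 12.6% and 24.9% of the smooth muscle level. The 8 smooth muscle markers stood in the same fibroblasts at medians of 2.15%, 3.87% and 4.78%, and at most at 9.11%, 12.2% and 15%. In macrophages Serpine2 was at 1.48% and Plat at 2.18% of the smooth muscle level, inside the range of 0.516 to 2.52% of those markers there.

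**Figure D2:**
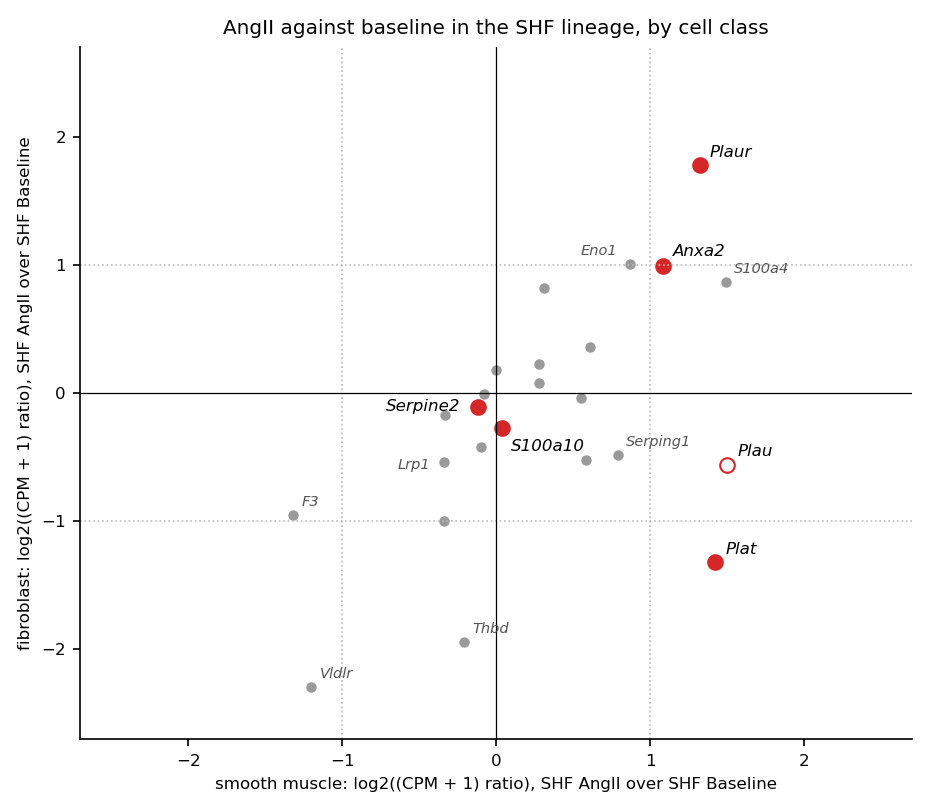
Log2 ratio of SHF AngII to SHF baseline in smooth muscle cells (horizontal axis) and in fibroblasts (vertical axis), with a pseudocount of 1 CPM; red points are the 6 genes, the open circle marks Plau, whose mean level is under 10 CPM, grey points are other plasminogen pathway genes with a mean of at least 10 CPM in both classes, and dotted lines mark 2-fold. Plaur and Anxa2 lie to the upper right, Serpine2 and S100a10 near the centre, and Plat to the lower right, at 1.42 and -1.32.

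Counted together, 5 of the 6 genes had a mean of at least 10 CPM in the comparison of SHF AngII with SHF baseline. The genes were chosen with earlier results of these data known, so the counts describe them and are not a test. In smooth muscle cells 3 of these 5 (Plat, Plaur and Anxa2) were past 2-fold higher and 0 past 2-fold lower, where 6.39% of all 6999 genes of that level were past 2-fold in either direction, 2.86% higher and 3.53% lower. Their median log2 ratio was 1.08, beside -0.10 for all genes. In fibroblasts 1 of the 5 (Plaur) was past 2-fold higher and 1 (Plat) past 2-fold lower, where 15.3% of 7692 genes were past 2-fold in either direction, 4.64% higher and 10.7% lower. The median was -0.11, beside -0.21 for all genes. Anxa2, at a log2 ratio of 0.99, was just inside the 2-fold line in fibroblasts. With each cell thinned to 2000 UMIs, 1 gene rather than 3 was past 2-fold in smooth muscle cells, with Plaur at a log2 ratio of 0.90.

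Promoter sequence is shown for Plaur and Anxa2, which were higher with AngII in both classes, and for Serpine2, which was not. RefSeq windows were found for these 3 of the 6 genes. The stretches run 5′ to 3′ on the gene's strand, are in the build GRCm38.p6, and hold no exon of the gene in GENCODE M21. For Serpine2, GENCODE M21 also gives an exon farther upstream, so its stretch lies in an intron of that longer gene model. Capitals mark an AP-1 site (TGANTCA) in Plaur and Anxa2 and GC boxes (GGGCGGG) in Serpine2, the first 2 of which overlap.
Plaur (chr7:24462363-24462482, + strand): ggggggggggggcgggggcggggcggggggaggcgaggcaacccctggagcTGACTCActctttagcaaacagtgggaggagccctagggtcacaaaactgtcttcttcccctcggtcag
Anxa2 (chr9:69453500-69453619, + strand): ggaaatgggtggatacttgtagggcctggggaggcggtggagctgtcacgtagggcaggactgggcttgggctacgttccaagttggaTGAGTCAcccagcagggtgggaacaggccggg
Serpine2 (chr1:79858697-79858816, - strand): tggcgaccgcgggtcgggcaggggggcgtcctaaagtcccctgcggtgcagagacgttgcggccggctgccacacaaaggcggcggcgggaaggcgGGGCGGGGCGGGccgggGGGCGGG

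AP-1 sites bind dimers of Fos and Jun proteins, and GC boxes bind factors of the Sp family. The Plaur match lies 69 to 63 bases before the RefSeq start and the Anxa2 match 95 to 89 bases before it. The Serpine2 window held no TGANTCA in the 250 bases before its start, and held 4 GC boxes, 3 of which are shown. Both strands were searched. Of 32851 RefSeq windows of 250 bases, 6.75% held an AP-1 match and 23.4% a GC box. A TATA box (TATAAA) was found in Anxa2, 17 to 12 bases before the RefSeq start, and in 12.4% of all windows. Plaur and Anxa2 also held GC boxes within their windows, at 3 places that overlap in Plaur and at 2 in Anxa2. The GENCODE M21 start of Anxa2 (chr9:69453620) lies upstream of its RefSeq start. The TATA box, and the Anxa2 GC box 24 to 18 bases before the RefSeq start, lie downstream of that GENCODE start. These matches describe letters in the windows and were not tested for function. The immediate early list holds Fos and Jun genes. With AngII in SHF, 19 of its 20 genes of at least 10 CPM were lower in each class. A link between the RNA of these genes and the matches was not tested.

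The comparison of lineages under AngII, CNC AngII against SHF AngII, showed small ratios in smooth muscle cells. The log2 ratio was -0.01 for Serpine2, 0.06 for Plat, 0.10 for Plaur, 0.18 for Anxa2 and 0.04 for S100a10. None of these 5 was past 2-fold, where 0.798% of all genes were (0.444% higher and 0.355% lower). Plau, under 10 CPM, had a log2 ratio of 0.86 with the pseudocount.

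In fibroblasts the lineage ratios of Serpine2 and Plat were larger. Serpine2 was 1.96-fold higher in CNC AngII than in SHF AngII (1.83 to 2.1) and Plat was 1.58-fold lower (1.45 to 1.71). Plaur, Anxa2 and S100a10 had log2 ratios of -0.11, 0.04 and 0.13. Again 0 of the 5 genes were past 2-fold, where 0.61% of all genes were (0.457% higher and 0.152% lower), with Serpine2 closest at a log2 ratio of 0.96. When cells with macrophage UMIs were kept out of the gates, or 5% of the library profile was subtracted from each class for free RNA, 1 of the 5 genes was past the line. The 8 smooth muscle markers in these fibroblasts summed to 4067 CPM in SHF and 3966 CPM in CNC under AngII, while their median share of the smooth muscle level was 3.87% in SHF and 4.78% in CNC. The part of these markers in the Serpine2 ratio was not tested. With no CNC baseline, a difference between lineages that was present without AngII cannot be told apart from one in the response.

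Between classes the genes differed by more than 2-fold in many cases, as did genes in general. Fibroblasts of SHF baseline were past 2-fold higher than smooth muscle cells in Plat, Anxa2 and S100a10 and lower in Serpine2, which is 4 of 5, where 21.5% of all genes were past 2-fold (13.9% higher and 7.58% lower). In SHF AngII 3 of 5 were past 2-fold (22.4% of all genes, 12.9% higher and 9.58% lower), without Plat. In CNC AngII 2 of 5 were past 2-fold (21.4% of all genes, 12.1% higher and 9.23% lower), Serpine2 and S100a10. The class counts moved by 1 under some alternatives: Anxa2 came inside the line under 1 of 12 in SHF baseline and 2 of 12 in SHF AngII, and Plat, at a log2 ratio of -0.95 in CNC AngII, went past it under 4 of 12. Macrophages of CNC AngII differed past 2-fold from smooth muscle cells in 4 of the 6 genes (41.9% of all genes, 23.7% higher and 18.2% lower), with Plau and S100a10 higher and Serpine2 and Plat lower. Against fibroblasts, Plau was higher and Serpine2, Plat and Anxa2 were lower, again 4 of 6 (35.7% of all genes, 18.2% higher and 17.5% lower).

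Serpine2, an inhibitor of both activators, was read beside Plat as inhibitor UMIs per activator UMI. Smooth muscle cells held 11.7 Serpine2 UMIs per Plat UMI in SHF baseline (11 to 12.4), 3.96 in SHF AngII (3.86 to 4.06) and 3.78 in CNC AngII (3.7 to 3.86). Fibroblasts held 0.254 (0.242 to 0.266), 0.591 (0.562 to 0.622) and 1.83 (1.66 to 2.01). With AngII the ratio was thus lower in smooth muscle cells and higher in fibroblasts, and the SHF fibroblasts of both conditions had more Plat than Serpine2 UMIs. The macrophages, with 133 UMIs of Serpine2 and 52 of Plat, had 2.56 (1.84 to 3.6). Both were inside the range of smooth muscle markers in macrophages, at 1.48% and 2.18% of the smooth muscle level against 0.516 to 2.52%. The part of free RNA in this ratio was not tested.

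**Figure D3:**
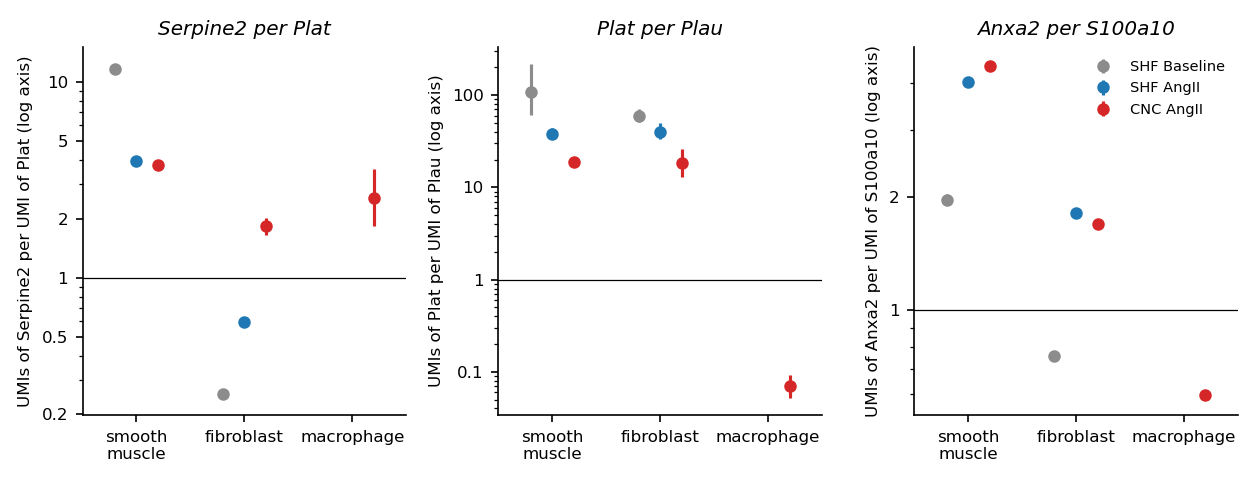
UMIs of one gene per UMI of another within a class, on log axes, for Serpine2 per Plat, Plat per Plau and Anxa2 per S100a10, by class and library; bars are 95% counting intervals. Smooth muscle cells go from 11.7 Serpine2 UMIs per Plat UMI in SHF baseline to 3.96 in SHF AngII, while fibroblasts go from 0.254 to 0.591.

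A wider list of 34 genes held other inhibitors, plasminogen receptors, clearance receptors and clotting genes. Over smooth muscle cells, 21 of them had a mean of at least 10 CPM over SHF AngII and SHF baseline, of which 1 was past 2-fold higher and 2 past 2-fold lower (2.86% and 3.53% of all genes). The higher gene was S100a4, which binds annexin A2 (488 to 1368.3 CPM, log2 ratio 1.49), followed by Eno1 (0.87) and Serping1 (0.79). The lower ones were F3, the tissue factor that starts clotting (15.8 to 5.74 CPM, -1.32), and Vldlr, which takes up serpin complexes (133 to 57.3 CPM, -1.20). Next lowest was the sorting receptor Sorl1, at -0.74.

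In fibroblasts, 19 genes of the list had that level, of which 1 was past 2-fold higher and 3 lower (4.64% and 10.7% of all genes). Eno1, an enolase that also binds plasminogen (65.9 to 134 CPM, 1.01), was higher, followed by S100a4 (0.87) and S100a11 (0.82). Vldlr (37.2 to 6.81 CPM, -2.29), Thbd, the thrombin receptor thrombomodulin (262 to 67.7 CPM, -1.94), and Ahnak, a scaffold protein that binds the annexin A2 complex (876 to 437 CPM), were lower. Vldlr was thus past 2-fold lower in both classes. Lrp1, which clears activator and inhibitor complexes, went from 170 to 134 CPM in smooth muscle cells and from 967 to 665 CPM in fibroblasts. The plasminogen receptor gene Plgrkt had log2 ratios of 0.00 and 0.18. The median log2 ratio of the list was 0.00 in smooth muscle cells and -0.17 in fibroblasts, beside -0.10 and -0.21 for all genes.

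Plasminogen itself, Plg, had 0 UMIs in the classes of both AngII libraries, which allows up to 0.0313 CPM in CNC AngII smooth muscle cells and 0.262 CPM in CNC AngII fibroblasts (3 UMIs of each total). Serpinb2, which inhibits urokinase, was at 0 or a few UMIs, and at most at 0.223 CPM, in SHF AngII fibroblasts. Serpini1, or neuroserpin, which inhibits tissue-type activator, had log2 ratios of 0.06 in smooth muscle cells and 0.60 in fibroblasts. Between CNC AngII and SHF AngII, 0 of the 19 list genes of at least 10 CPM were past 2-fold in either class, where 0.798% of all genes were in smooth muscle cells and 0.61% in fibroblasts. Highest in smooth muscle cells were S100a4 (0.79), Serpini1 (0.57) and Igf2r (0.48), and the lowest Serping1 (-0.50), Vldlr (-0.37) and Eno1 (-0.21). Among fibroblasts S100a4 (0.70), Serpini1 (0.61) and Anxa1 (0.41) were highest, and Thbd (-0.54), Tfpi (-0.25) and Serping1 (-0.21) lowest.

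Macrophages of CNC AngII had 3 of 22 list genes past 2-fold higher than smooth muscle cells and 13 lower (23.7% and 18.2% of all genes). Itgam (3.08 CPM in smooth muscle cells, 217 in macrophages) and Itgb2 encode the integrin chains of leukocytes that bind the urokinase receptor, and with Tfpi (log2 ratio 1.93) they were the higher genes. The lowest were Serpini1 (-5.17), Vldlr (-4.75) and Itgb3 (-4.71). Against fibroblasts, Itgam and Itgb2 were past 2-fold higher, followed by Eno1 at 0.89, and 11 of 19 genes were lower (18.2% and 17.5% of all genes higher and lower), with Serping1, the C1 inhibitor (-6.53), F3 (-6.19) and Mrc2 (-5.58) at the bottom.

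Within fibroblasts, Plat was also uneven. Cells with a UMI of Cthrc1, a gene of activated fibroblasts, had Plat at 446 CPM in SHF baseline, against 194 CPM in cells without one. In SHF AngII the values were 99 and 76.1 CPM, and in CNC AngII 61.5 and 54.1 CPM. Both kinds of cell were lower in SHF AngII than in SHF baseline, with log2 ratios of -2.17 and -1.35. Cells with a Cthrc1 UMI were also the deeper ones, at medians of 12112.5 against 9162 UMIs in SHF baseline (476 and 3463 cells) and 19231 against 10656.5 in SHF AngII (1646 and 994 cells). Plat was likewise lower with AngII in cells with and without Pi16, a gene of adventitial fibroblasts (-1.34 and -1.65), in cells with Comp or Chad (-1.08) and in cells that were not cycling (-1.19). Cycling fibroblasts of SHF AngII, 373 in number, had Plat at 50.8 CPM, against 103 CPM in the others.

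Serpine2 separated the same fibroblasts the other way under AngII. In SHF baseline it was at 61.9 CPM in cells with Cthrc1 and 58.8 CPM in cells without it, in SHF AngII at 36.5 and 109 CPM, and in CNC AngII at 67.7 and 192 CPM. The log2 ratio of SHF AngII to SHF baseline was -0.76 with Cthrc1 and 0.89 without. Over all SHF fibroblasts Serpine2 was near equal, while these ratios were opposite and the numbers of cells in the groups shifted. As a Cthrc1 UMI sets the group, the groups need not hold the same kinds of cell in both libraries. The part of this in the ratios was not tested. Cells with a Cthrc1 UMI were 476 of 3939 fibroblasts in SHF baseline and 1646 of 2640 in SHF AngII, and were the deeper cells in both. Summed smooth muscle markers in fibroblasts were 3737.3 CPM with Cthrc1 and 5022.9 CPM without in SHF AngII, and 4042.2 and 3808.3 CPM in CNC AngII. Plau in baseline fibroblasts was at 9.37 CPM with Cthrc1 and 2.88 CPM without, and at 4.42 CPM with Pi16 and 0.592 CPM without.

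Across subgroups of smooth muscle cells the Plat ratio was similar. The log2 ratio of SHF AngII to SHF baseline was 1.49 in cells with Igfbp2 and 1.25 in those without, and 1.25 in cells with Tnnt2 and 1.55 in those without. Under AngII the SHF cells without Tnnt2 had more Plat (135 against 91.3 CPM) and more Plaur (63.3 against 40.3 CPM) than those with it. Smooth muscle cells with at least 3 UMIs of Spp1, the gene of osteopontin, had Plaur at 73.5 CPM, against 48.6 CPM in the rest of SHF AngII, and at 75.8 against 50 CPM in CNC AngII. Those cells had medians of 22508 and 20754 UMIs, against 13043.5 and 12848 in the rest.

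Cycling smooth muscle cells of CNC AngII, 184 in number, had lower Serpine2 (251 CPM) and Plat (58.1 CPM) and higher Plaur (101 CPM) and S100a10 (401 CPM) than the class as a whole. These cells had a median of 28142 UMIs, against 13248 in cells not cycling. Their summed macrophage markers were 744 CPM against 67.9 CPM, and their smooth muscle markers 29241.9 against 57871.1 CPM. The part of these markers in the values was not tested.

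**Figure D4:**
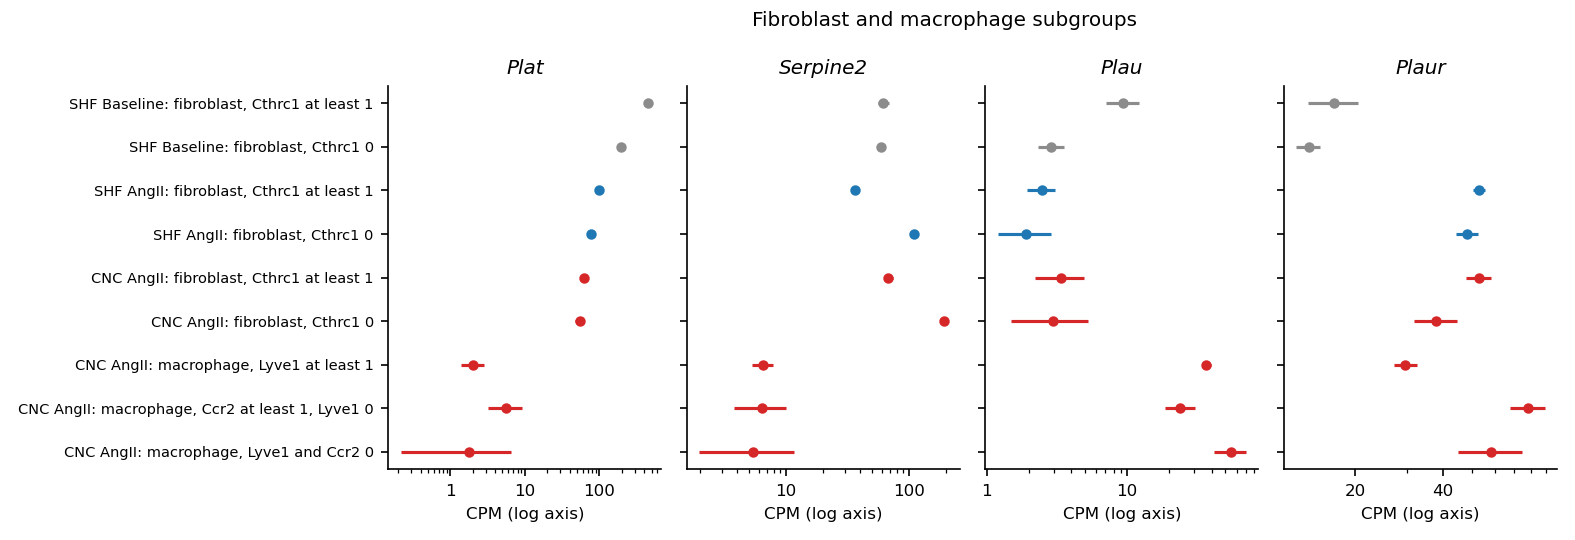
Levels of Plat, Serpine2, Plau and Plaur, in CPM on a log axis, in fibroblasts with and without a Cthrc1 UMI in each library and in 3 groups of CNC AngII macrophages; bars are exact 95% Poisson intervals. Plat is at 446 CPM in Cthrc1-positive fibroblasts of SHF baseline and 99 CPM in those of SHF AngII, and Plaur is highest in macrophages with Ccr2 (77.7 CPM).

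Among CNC AngII macrophages, urokinase and its receptor were not highest in the same cells. The 1349 cells with Lyve1, a gene of resident macrophages, had Plau at 36.6 CPM and Plaur at 29.7 CPM. The 286 cells with Ccr2, the chemokine receptor of recruited monocytes, and no Lyve1 had Plau at 23.9 CPM and Plaur at 77.7 CPM. The 129 cells with neither were at 54.5 and 58.1 CPM, from 61 and 65 UMIs. Medians were 11730, 9874 and 8134 UMIs per cell in that order of groups. Summed smooth muscle markers were 385, 386 and 713 CPM, and fibroblast markers 347, 490 and 911 CPM. The part of depth and of these markers in the values was not tested. Plaur was thus lowest in Lyve1-positive cells, and Plau lowest in Ccr2-positive cells.

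The genes whose profile was most like each member were taken over the 7 class profiles of at least 50 cells, by Pearson correlation of log2(CPM + 1) among 2612 genes. The profiles share libraries and classes, so these values only describe them. For Serpine2 they were Rbpms, Cav1 and Nudt4 (0.992 each), for Plat Scd2 (0.994), Tpd52l2 (0.988) and Imp3 (0.965), and for Plau Cers2 (0.971), Fgfr1op2 and Arpc5 (0.958 each). For Plaur they were Lgals1 (0.990), Atp5d (0.984) and Ccdc85b (0.980), for Anxa2 Txnl4a (0.988), Pdia3 (0.987) and Tspan4 (0.986), and for S100a10 Marcks (0.996), Rnase4 (0.993) and Sgta (0.992). As many as 93 genes reached 0.95 with Serpine2 but only 6 with Plau. Among the members themselves, the highest values were 0.62 for Serpine2 and Plat, 0.60 for Plaur and Anxa2 and 0.52 for Anxa2 and S100a10. The lowest were -0.88 for Serpine2 and S100a10, -0.75 for Serpine2 and Plau and -0.65 for Plat and Plau.

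The 6 genes lie on different chromosomes. In GENCODE M21 on GRCm38, Serpine2 is at chr1:79794197-79861180 on the minus strand, Plat at chr8:22757727-22782844, Plau at chr14:20836660-20843385, Plaur at chr7:24462484-24475968, Anxa2 at chr9:69453620-69491795 and S100a10 at chr3:93555080-93564643, all on the plus strand. The submitters' processing notes name mm10, the same assembly.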

How the data were processed

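Single-cell RNA sequencing libraries of sorted aortic cells were deposited by the authors as raw UMI counts of each gene in each barcode, not normalised, per the file headers and values. The submitters' processing notes name mm10, fastp, STAR 2.5 and HTSeq 0.6.1, with no role or order; cell calling and strand are not given in the sources used here. The AngII tables list 32285 genes and that of baseline lists 18760, under older names (515 matched through synonyms, 13 repeated names left out), so a ratio of AngII to baseline includes this difference. Of 34 pathway genes, 31 were listed at baseline; other genes of the list as first drawn up are not reported here.

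Barcodes were kept as cells from 500 genes and up to 10% mitochondrial UMIs, less doublets called per library with Scrublet (scanpy 1.11.5, expected rate 8e-06 per cell, among barcodes from 200 genes and up to 20% mitochondrial UMIs), which were 205 (2.39%), 191 (2.01%) and 277 (2.65%) of SHF baseline, SHF AngII and CNC AngII. Within a class, each gene's UMIs were totalled and set against the class's whole UMI total. Log2 ratios used a pseudocount of 1 CPM, folds none. Past 2-fold means an absolute log2 ratio of at least 1 at a mean of at least 10 CPM. Intervals are exact Poisson (levels), Clopper-Pearson (shares) or conditional binomial (ratios), and use a normal approximation for differences of log2 ratios. Scripts were tested on simulated data (Python 3.11.15, numpy 2.4.6, scipy 1.17.1).

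The genes and lists were chosen with earlier results of these data known. Named genes were the 6 members, 6 pathway genes always, the 3 highest and 3 lowest pathway genes of the AngII, lineage and macrophage comparisons, and the 3 genes most like each member (mean of at least 50 CPM, without gate, mitochondrial and ribosomal protein genes). Pathway extremes of fibroblasts against smooth muscle cells are not listed. Subgroup genes came from earlier results. Alternatives were other cell filters, doublets kept, other gates, thinning, other totals and TMM scaling (edgeR 4.0.16 in R 4.3.3), another pseudocount and level minimum, mean shares per cell and subtraction of free RNA; totals over common genes were added after seeing the data.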

Additional observations from a re-analysis of the deposited data

Results flagged for a closer look

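Plat had opposite AngII ratios in the classes of SHF, with a log2 ratio of SHF AngII to SHF baseline of 1.42 in smooth muscle cells and -1.32 in fibroblasts. With 1 library per group, the difference between classes was not tested beyond counting error. Its lineage ratios, CNC AngII over SHF AngII, were 0.06 in smooth muscle cells and -0.65 in fibroblasts, and this difference was not tested either. The smooth muscle ratio was 1.04-fold and changed sign under the stricter cell filter (-0.08).

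Plau likewise had opposite signs, at 1.50 in smooth muscle cells and -0.56 in fibroblasts for SHF AngII over SHF baseline. The log2 ratio of fibroblasts minus that of smooth muscle cells, without a pseudocount, was -3.71 (-4.66 to -2.76), and was not tested beyond counting error. The smooth muscle value rests on 11 UMIs at baseline. The fibroblast ratio was 0.11 (-0.48 to 0.72) above the median share of immediate early genes and -1.37 (-1.90 to -0.86) below it.

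Some signals lay in cells that no comparison used. Cells with at least 3 UMIs of Pecam1 and Cdh5 together, an endothelial gate, had Plau at 28.1 CPM in SHF AngII (17 UMIs in 5 of 51 cells), against 0.948 CPM in SHF baseline (1 UMI). Summed fibroblast markers were 22867.4 CPM in those cells of SHF baseline and 14163.0 CPM in those of SHF AngII; their part in the value was not tested. In cells that met none of the 3 gates, Plaur was at 20.3 CPM in SHF baseline and, under AngII, at 55.7 CPM (SHF) and 70.6 CPM (CNC). In the same cells Anxa2 was at 554 CPM at baseline and at 1220.0 and 1194.2 CPM.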

How the results depend on the processing

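The log2 ratios of the 6 genes in 9 comparisons were recomputed under 12 alternatives each, 648 values in all. None reversed a call, 444 stayed within the counting interval of the main value and 204 moved outside it; 21 changed sign, all of them ratios short of 2-fold, and 20 changed side of the 2-fold line. The count of genes past 2-fold with AngII in smooth muscle cells was 1 rather than 3 when cells were thinned to 2000 UMIs. With a minimum of 50 CPM it was 1 rather than 2 in fibroblasts with AngII, and 2 rather than 4 in macrophages against fibroblasts, since fewer genes were tested. For CNC AngII over SHF AngII in fibroblasts it was 1 rather than 0 with other classes kept out of the gates and with 5% free RNA subtracted; the cause was not tested.

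For SHF AngII over SHF baseline, Plat ranged from 1.10 to 1.65 in smooth muscle cells and from -1.44 to -1.16 in fibroblasts, Plaur from 0.90 to 2.22 and from 1.35 to 2.03, and Anxa2 from 0.94 to 1.24 and from 0.91 to 1.12. Plaur reached 2.22 under the stricter cell filter, which left 120 smooth muscle cells of SHF baseline. Serpine2 in fibroblasts ranged from -0.18 to 0.46, with 4 changes of sign. TMM scaling moved the median of all genes from -0.10 to -0.04 in smooth muscle cells and from -0.21 to -0.07 in fibroblasts. Depth limits Plau, which had 11 UMIs in smooth muscle cells of SHF baseline and 37 to 148 UMIs in the fibroblasts of a library. No paired analysis was possible because each group has 1 library, and no replicate could be left out.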
